A study of Drosophila melanogaster with 3 samples.

Results

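Divergent gene promoters are places where a protein-coding gene on the plus strand and another on the minus strand start close together, facing away from each other. The regions described here are the ChIP-seq summits of E(spl)mβ that lay within 500 bp of a transcription start site (TSS) on each strand, from genes annotated by Ensembl. The rule used positions and no signal. It took 1104 of the 8549 summits in the authors' list of peaks that passed the irreproducible discovery rate (IDR) step, which keeps peaks ranked alike in replicates, or 12.9% (exact 95% binomial interval 12.2 to 13.6). Among the 3569 summits within 500 bp of any protein-coding TSS they made up 30.9% (29.4 to 32.5), and the remaining 2465, near starts on 1 strand only, are called one-strand promoter summits. The study is a chromatin immunoprecipitation of Drosophila melanogaster embryos, both sexes pooled and whole, aged 0 to 24 h. They came from a transgenic line that stably expresses E(spl)mβ with GFP at its C-terminus, precipitated with an antibody against GFP. The labels give 1 group of 3 biological replicates, each from its own biosample, and no untagged or mutant group. Each deposited replicate list held 29995 to 30000 peaks on the chromosome arms, and read totals are not analysed here, so depth is unknown.

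E(spl)mβ is one of the basic helix-loop-helix repressors of the Enhancer of split complex, which Notch signalling switches on. These proteins recruit the corepressor Groucho and bind E-box sequences, among them CACGTG, and they hold back neural fate in the embryo. Compact genomes such as that of the fly hold many head-to-head gene pairs, often genes needed in every cell, and several architectural proteins such as BEAF-32, Chro and Cp190 are known to favour their promoters.

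The gaps between the paired starts show what these regions look like as DNA. First come the 4 strongest of 275 summits that lay, on the arms used for sequences, in a gap of at most 300 bp with no annotated exon. Each line runs 5′ to 3′ on the plus strand, from the base after the minus-strand start to the base before the plus-strand start. The letters were read from the RefSeq Release 6 genome, whose coordinates are those of dm6. Capitals mark, on either strand, the E-boxes CACGTG and CAGCTG, the Hairy site CACGCG, the element TATCGATA and the M1BP motif GGTCACACT.
Art3/mRpS10, chr3R:15229409-15229664: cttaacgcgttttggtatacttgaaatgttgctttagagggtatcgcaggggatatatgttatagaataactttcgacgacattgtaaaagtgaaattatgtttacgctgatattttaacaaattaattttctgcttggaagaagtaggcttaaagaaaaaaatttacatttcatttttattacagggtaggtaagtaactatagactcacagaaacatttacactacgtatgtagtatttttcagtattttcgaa
CG13390/CG17294, chr2L:8376798-8377034: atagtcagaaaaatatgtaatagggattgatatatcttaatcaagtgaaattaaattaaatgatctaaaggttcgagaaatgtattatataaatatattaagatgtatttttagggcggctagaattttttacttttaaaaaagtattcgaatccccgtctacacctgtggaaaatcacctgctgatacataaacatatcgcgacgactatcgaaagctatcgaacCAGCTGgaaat
Tcs5/CHMP2B, chr3L:5139396-5139618: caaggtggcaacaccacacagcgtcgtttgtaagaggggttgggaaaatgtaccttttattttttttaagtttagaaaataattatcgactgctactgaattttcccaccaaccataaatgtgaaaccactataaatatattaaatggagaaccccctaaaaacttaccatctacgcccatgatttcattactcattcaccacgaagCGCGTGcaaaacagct
Lon/PIG-F, chr3L:19612200-19612454: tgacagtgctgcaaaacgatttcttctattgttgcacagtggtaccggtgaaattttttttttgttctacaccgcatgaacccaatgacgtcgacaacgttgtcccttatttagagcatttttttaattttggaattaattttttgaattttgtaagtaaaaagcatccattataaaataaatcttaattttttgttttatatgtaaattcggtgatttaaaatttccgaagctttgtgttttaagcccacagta

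None of the 4 gaps held a CACGTG, a Dref element or an M1BP motif, and 2 held none of the marked motifs. Art3 encodes an arginine methyltransferase and mRpS10 a protein of the mitochondrial ribosome, Lon a mitochondrial protease, PIG-F an enzyme of GPI anchor synthesis and CHMP2B a subunit of the ESCRT-III membrane-cutting machinery. GC content was 30.1% in the Art3/mRpS10 gap, 30.8% at CG13390/CG17294, 38.1% at Tcs5/CHMP2B and 30.6% at Lon/PIG-F. The summit stood at base 130 of 256 in the Art3/mRpS10 gap and at base 123 of 255 in the Lon/PIG-F gap, so both were near the middle. It stood at base 87 of 237 in the CG13390/CG17294 gap and at base 99 of 223 in the Tcs5/CHMP2B gap.

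The next 3 gaps are shown because they held the strongest summit in such a gap with a CACGTG E-box, with the DNA replication-related element TATCGATA, and with the M1BP motif GGTCACACT. The capitals mark the same motifs.
ttm50/CG2712, chrX:2732191-2732468: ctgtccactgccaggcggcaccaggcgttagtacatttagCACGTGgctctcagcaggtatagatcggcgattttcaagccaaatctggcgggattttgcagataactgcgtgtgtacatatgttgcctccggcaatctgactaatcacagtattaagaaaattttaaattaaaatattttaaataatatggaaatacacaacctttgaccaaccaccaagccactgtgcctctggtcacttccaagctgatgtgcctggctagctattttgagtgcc
fws/Lamtor3, chr2L:17481030-17481230: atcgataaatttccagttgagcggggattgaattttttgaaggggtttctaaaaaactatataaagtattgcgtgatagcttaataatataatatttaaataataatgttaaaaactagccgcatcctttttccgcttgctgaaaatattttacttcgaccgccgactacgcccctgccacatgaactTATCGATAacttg
Nle/Sf3b1, chr2L:568122-568339: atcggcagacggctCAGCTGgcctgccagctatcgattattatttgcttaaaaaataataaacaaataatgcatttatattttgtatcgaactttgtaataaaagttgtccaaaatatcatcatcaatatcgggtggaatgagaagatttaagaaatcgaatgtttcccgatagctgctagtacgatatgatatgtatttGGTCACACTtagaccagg

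At ttm50/CG2712, where ttm50 encodes a mitochondrial import factor, the summit stood at base 121 of the gap and had a signal of 3602. At fws/Lamtor3, a Golgi tethering subunit and a Ragulator subunit, the TATCGATA lay next to the Lamtor3 start, and the summit stood at base 98 with a signal of 4055. At Nle/Sf3b1, a ribosome assembly factor and a splicing factor, the GGTCACACT and the CAGCTG lay at opposite ends of the gap, and the summit stood at base 87 with a signal of 2188. In all 3 gaps the marked motifs lay towards the starts and the summit in the inner part. Signal here is the enrichment value the authors' peak caller gave each peak. It orders the peaks of 1 list and says nothing across lists.

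The summits mostly lay between the paired starts, upstream of both genes. This held for 867 of the 1104 (78.5%, 76.0 to 80.9), while 232 (21.0%) lay inside one of the genes, past its start, and 5 lay past both starts. The rule fixes the place where genes overlap or where starts are over 500 bp apart. At the spacings between, where a summit inside a gene also counts, 721 of 935 (77.1%, 74.3 to 79.8) lay between the starts. This share still depends on the rule, since the room it leaves inside a gene shrinks as spacing grows and is gone at 500 bp. The peak interval spanned both starts at 593 summits (53.7%). This share depends on the width of the intervals, which had a median of 451 bp. A width of exactly 470 bp recurred, among others at all of the 5 weakest summits, and its part in the share was not tested. Of the 867 summits between the starts, 501 (57.8%, 54.4 to 61.1) lay in the central 1 of 3 equal parts of the gap. The 867 include the 146 with starts over 500 bp apart, which the rule holds towards the middle. An exon of any gene covered 58 of the 867 (6.69%). The nearer start was that of the plus-strand gene at 600 summits (54.3%). The 1104 summits lay in 1062 peak intervals, touched 1057 gene pairs and 2020 genes, and 56 had more than 1 gene of a strand in reach. They are not independent of each other: 42 intervals held a pair of these summits. Taking only the nearest gene of each strand, 116 of 986 gene pairs had 2 of them. The pair with most was dup/SRPK, a replication licensing factor beside a splicing kinase, which had 3 with signals of 550, 435 and 375. The one with 375 had a match in replicate 2 only, and its interval overlapped those of the others.

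**Figure D1:**
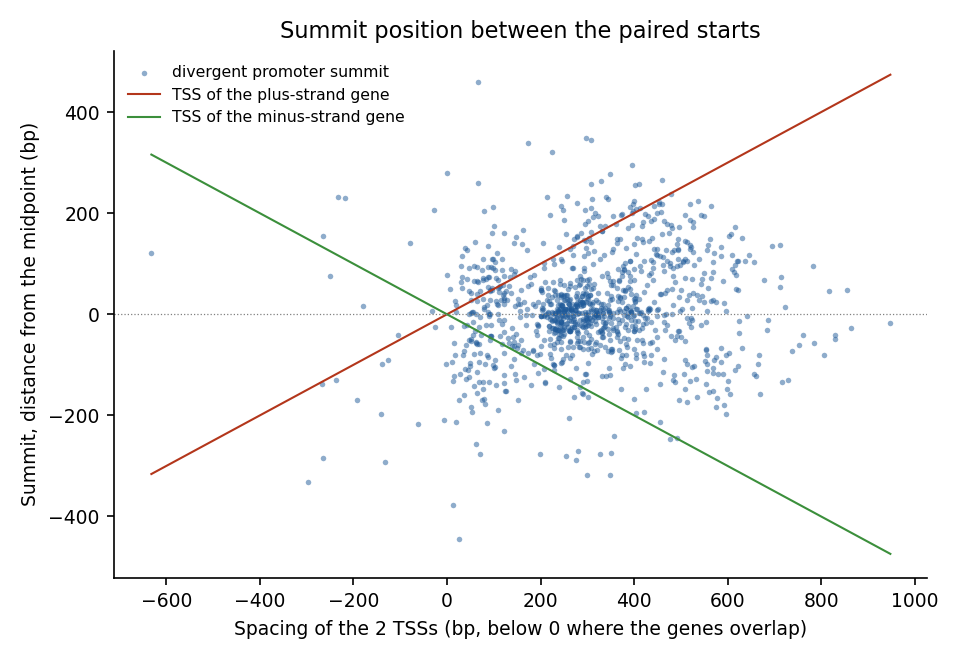
Each point is 1 of the 1104 divergent promoter summits, with the spacing of its paired starts on the horizontal axis in bp and its distance from their midpoint on the vertical axis in bp, positive towards the plus-strand gene. The lines are the starts, and the cloud at spacings over 200 and up to 300 bp sits on the midpoint (median distance 31 bp), while at 1 to 100 bp most points lie outside the lines (105 of 129).

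The place of the summit changed with the spacing of the starts. At spacings of 1 to 100 bp, 105 of 129 summits lay past the start of one gene and 24 between the starts, with a median distance of 74.5 bp from the midpoint. CG11309/CG7632, the strongest of this class with a signal of 7606, has starts 39 bp apart and its summit 89 bp past that of CG11309. At over 100 and up to 200 bp, 40 of 110 lay past one start, among them the third strongest of all 1104 summits, at Chro/Ssl1, which pairs a chromatin protein of interbands with a TFIIH subunit. At over 200 and up to 300 bp, 277 of 309 lay between the starts, and the median distance from the midpoint was 31 bp, the lowest of the spacing classes. At over 300 and up to 500 bp the rule leaves less room inside a gene. There 350 of 387 lay between the starts, with a median of 55.5 bp from the midpoint. Past 500 bp the rule itself leaves only the middle of the gap, so that all 146 lay between the starts by construction. The 23 summits at overlapping genes lay past a start, also by construction, and CG5846/CG4658 was the strongest of them with a signal of 3068.

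Signal was highest at the pairs spaced over 200 and up to 300 bp, with a median of 902 over 309 summits. The median was 557 at 1 to 100 bp, 689 from there to 200 bp, 782 between 300 and 500 bp, 634 past 500 bp and 468 at overlapping genes. All 3 replicates gave the same highest class. Replicates 1 and 2 had medians of 379 and 205 at 200 to 300 bp, against 259 and 132 at 1 to 100 bp. In replicate 3 the medians were 358 at 200 to 300 bp and 204 at 1 to 100 bp. GC content moved with spacing as well: the window of 100 bp on each side of the summit had a median GC of 37.8% at 1 to 100 bp, 31.8% at 200 to 300 bp and 29.9% at 300 to 500 bp, and its part in the signal was not tested. Near the limit of the rule, the 44 summits whose farther start was 451 to 500 bp away had a median signal of 487, and the 32 summits just outside, at 501 to 550 bp, had a median of 447.

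How often a gene pair held such a summit also depended on its spacing. Of all 2720 opposite-strand pairs with starts within 1000 bp of each other, 1057 had a divergent promoter summit, a background of 38.9%. The share was 55.6% (51.2 to 59.9) of 529 pairs spaced over 200 and up to 300 bp and 50.5% (46.6 to 54.4) of 651 pairs spaced over 300 and up to 500 bp. It was 37.7% (33.1 to 42.5) of 419 pairs at 1 to 100 bp, 34.7% (29.8 to 40.0) of 354 pairs at over 100 and up to 200 bp and 33.3% of 105 overlapping pairs. The step lay at 200 bp: 31.5% (24.2 to 39.7) of 149 pairs spaced 151 to 200 bp and 56.7% (50.2 to 63.1) of 238 pairs spaced over 200 and up to 250 bp held one. Past 500 bp the share fell to 17.8% of 662 pairs, but the window that the rule leaves shrinks at every step of spacing. Counting any IDR summit within 500 bp of either gene, a window that grows with spacing, gave 48.2% past 500 bp, 57.8% at 300 to 500 bp, 59.5% at 200 to 300 bp, 39.3% at 100 to 200 bp, 41.8% at 1 to 100 bp and 52.4% at overlapping pairs. These intervals cover the counting of pairs alone, and neighbouring pairs are not independent.

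**Figure D2:**
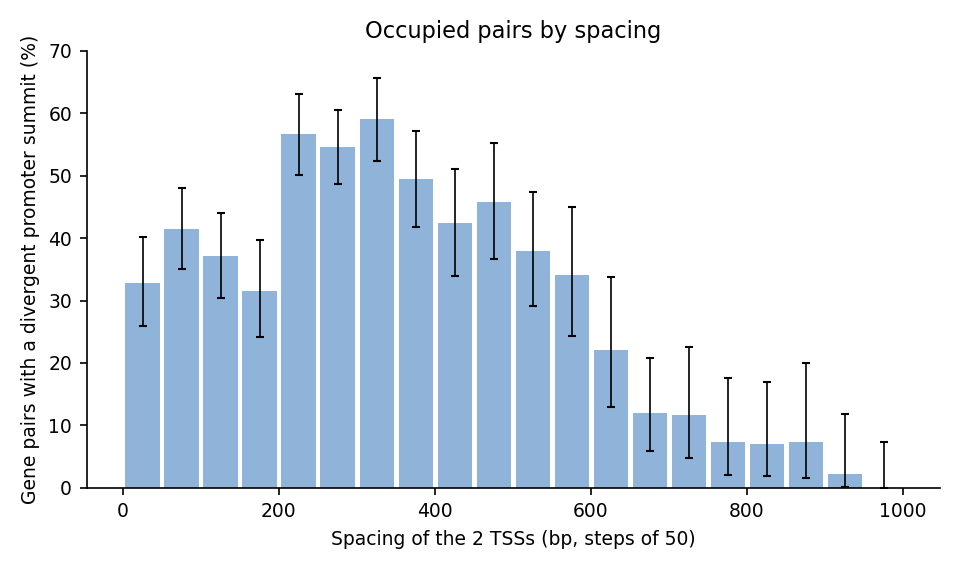
Bars give the percentage of opposite-strand gene pairs with a divergent promoter summit, by spacing of the paired starts in steps of 50 bp, and lines give the exact 95% binomial interval. The bars stand at 31.5% to 41.4% between 51 and 200 bp, at 54.6% to 59.1% between 200 and 350 bp, and are lower after that. The window that the rule allows narrows with spacing over the whole range.

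Genes in an opposite-strand pair held an E(spl)mβ summit more often than other genes. Over all 13945 protein-coding genes the backgrounds were 28.1% with any IDR summit near a start and 14.5% with a divergent promoter summit. Among the 5141 genes in such a pair, 2318 had an IDR summit (45.1%, 43.7 to 46.5), against 1605 of the 8804 genes in no such pair (18.2%, 17.4 to 19.1). A gene in a pair has the starts of its neighbour close by, so the 2 genes of a pair share their summits and are not independent counts. By arm, the divergent class made up 35.1% of the promoter summits of 3R, 32.2% of 2L, 31.5% of 3L, 28.0% of 2R and 26.4% (22.9 to 30.2) of X, and chromosome 4 had 1 such summit.

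Divergent promoter summits were stronger than one-strand promoter summits in the IDR list, with a median signal of 751 against 545, and 535 over all 8549 summits. Among the 4274 strongest IDR summits, a background of 50%, stood 714 of the divergent class (64.7%, 61.8 to 67.5) and 1260 of the one-strand class (51.1%, 49.1 to 53.1). Among the 854 strongest, a background of 9.99%, stood 193 of the divergent class (17.5%) and 326 of the one-strand class (13.2%). A replicate summit lay within 100 bp in each of the 3 replicate lists at 952 divergent summits (86.2%, 84.1 to 88.2) and 2130 one-strand summits (86.4%, 85.0 to 87.7), close to the background of 87.4% over the IDR list. The IDR step had already chosen peaks that replicates share, which leaves little room for these shares to differ.

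Each replicate list gave the same order, but by different amounts. The median signal was 306 at divergent summits and 271 at one-strand summits in replicate 1, a log2 difference of 0.18. It was 173 at divergent summits and 132 at one-strand summits in replicate 2, a difference of 0.39. It was 292 at divergent summits and 176 at one-strand summits in replicate 3, a difference of 0.73, the widest. The mean difference was 0.43 ± 0.28 (SD, n = 3), higher at divergent summits in 3 of 3 replicates. The exact two-sided sign-flip permutation test gave p = 0.25, which is the smallest p that 3 replicates allow, so the design cannot pass 0.05. Without replicate 3 the mean was 0.28. Among the 4274 strongest summits the difference was -0.01 in replicate 1, 0.09 in replicate 2 and 0.36 in replicate 3 (mean 0.15, exact permutation p = 0.5), so there the order did not hold in every replicate.

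Base composition moved with this difference. The same window around divergent summits had a median GC of 31.8%, against 36.8% around one-strand summits, and in all 3 replicates summits in AT-rich windows had the higher signal. In replicate 3, divergent summits had a median signal of 403 where GC was at most 27.5% and 144 where it was over 42.5%, and one-strand summits had 311 and 117 in the same ranges. Comparing divergent with one-strand summits inside 5 ranges of GC, weighted by the number of divergent summits, gave log2 differences of 0.03 in replicate 1, 0.18 in replicate 2 and 0.36 in replicate 3, with a mean of 0.19 (exact permutation p = 0.25, again the smallest possible). This comparison was added after the data had been seen. Replicate 3 also stood apart from replicate 1 by class: the median log2 ratio of its signal to that of replicate 1 was -0.15 at divergent summits and -0.58 at one-strand summits.

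**Figure D3:**
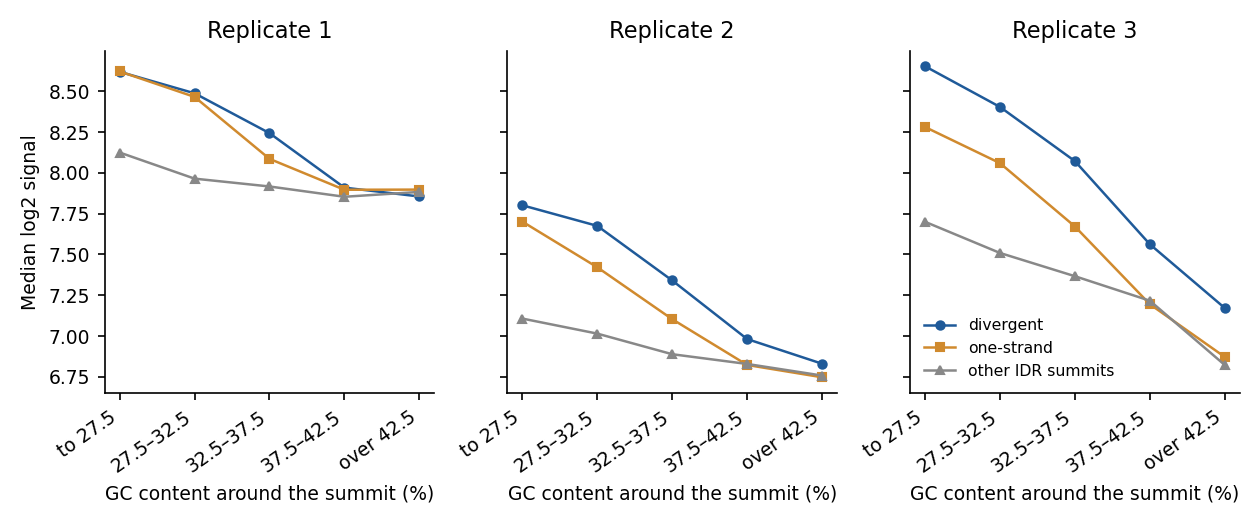
Points give the median log2 signal of matched replicate peaks (vertical axis) in 5 ranges of GC content within 100 bp of the summit (horizontal axis, %), for divergent, one-strand and other IDR summits, with 1 panel for each replicate. At divergent and one-strand summits signal is lower where GC is over 37.5% than where it is under 32.5%, in each replicate, and the divergent line is above the one-strand line in all 5 ranges in replicates 2 and 3 but lies within 0.16 log2 units of it in replicate 1.

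Sequence motifs were counted on both strands in the 100 bp on each side of every summit, with a window of the same length upstream of all 19607 protein-coding starts as background. These windows differ in base composition: median GC was 31.8% at divergent summits, 36.8% at one-strand summits and 38.8% upstream of all starts. The part of GC in the shares was not tested. The E-box CACGTG, the best known target of E(spl) repressors, was in 4.17% (3.07 to 5.52) of windows at divergent summits, 4.10% (3.35 to 4.96) at one-strand summits and 2.22% of all promoters. The longer form GGCACGTG, which contains CACGTG, was in 0.453% of divergent windows, 1.14% of one-strand windows and 0.240% of all promoters. CACGCG, a site that Hairy binds, was in 4.71% (3.54 to 6.13) of divergent windows, 9.41% (8.29 to 10.6) of one-strand windows and 4.17% of all promoters. Among divergent windows, median GC was 46.5% in those with CACGCG and 31.3% in those without. The share of CACGTG at divergent summits was thus above that of all promoters. For GGCACGTG (0.147 to 1.05) and CACGCG the interval at divergent summits included the share of all promoters. Another E-box, CAGCTG, which proneural proteins bind, was in 10.8% of divergent windows, 10.7% of one-strand windows and 11.9% of all promoters, and the N-box CACNAG in 18.9%, 20.4% and 20.5% in the same order.

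Promoter motifs separated the classes more clearly. The windows of the classes also differ in place. The median distance to the nearest start was 106 bp at divergent summits and 158 bp at one-strand summits, and divergent summits have starts of both strands within 500 bp. The part of this in the shares was not tested. The DNA replication-related element TATCGATA, bound by Dref, was in 10.1% (8.34 to 11.98) of divergent windows, 4.75% (3.94 to 5.66) of one-strand windows and 6.17% of all promoters. CGATA, the BEAF-32 core that TATCGATA contains, was in 44.2% of divergent windows, 31.7% of one-strand windows and 36.6% of all promoters. The M1BP motif GGTCACACT was in 3.99% of divergent windows, 2.60% of one-strand windows and 2.43% of all promoters, and the intervals of the first 2 shares overlapped. GAGAGAG, bound by GAGA factor, was in 0.815% (0.373 to 1.54) of divergent windows, 7.51% (6.50 to 8.62) of one-strand windows and 6.20% of all promoters. TATAAA, letters that AT-rich DNA holds often, was in 45.0% of divergent windows, 32.3% of one-strand windows and 33.5% of all promoters. Of the other motifs, the Zelda site CAGGTAG was in 0.634% of divergent and 0.933% of one-strand windows, the Su(H) site GTGGGAA in 2.45% and 2.80%, the Pleiohomeotic core GCCAT in 22.7% and 25.4%, and GTTAAC, searched as letters with no factor in view, in 3.71% and 4.67%. In all, 6 of 14 motifs had the higher share at divergent summits.

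Head-to-head pairs with and without a divergent summit were also compared, but these groups differ in spacing. Of 662 pairs spaced over 500 bp, 118 held such a summit, so wide pairs are mostly in the group without. In wide pairs a window around the midpoint does not reach the starts. A pair without a divergent summit can hold another IDR summit. Of the 662 pairs, 319 had an IDR summit of any kind within 500 bp of a start, a count that includes the 118. The part of spacing in these shares was not tested. In the 100 bp on each side of the midpoint of the starts, CACGTG was in 3.72% (2.64 to 5.07) of 1022 pairs with a divergent summit and 1.57% (1.02 to 2.31) of 1593 pairs without. TATCGATA was in 9.30% of pairs with a summit and 8.10% of pairs without, CGATA in 42.2% and 40.5%, and CACGCG in 2.74% and 2.95%, each with overlapping intervals. GGTCACACT was in 3.52% of pairs with a summit and 4.90% of pairs without. In this midpoint window CACGTG and TATAAA (43.2% and 37.7%) were the 2 of 14 motifs whose intervals did not overlap here. GGCACGTG was in 6 pairs with a summit and 1 without. Median GC was 30.8% at the midpoints of pairs with a summit and 34.3% at those without.

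Within the gaps the motifs lay near the starts and away from the centre, where the summits were. In the 623 pairs spaced over 200 and up to 500 bp that held a divergent summit, TATCGATA occurred 1.88 times per kb in the first 50 bp next to a start, 0.546 times at 51 to 100 bp and 0.120 times farther in. CAGCTG showed the same decline, with 1.52, 0.530 and 0.147 occurrences per kb, and so did CGATA, with 11.2, 4.24 and 1.59. CACGTG occurred 9, 1 and 4 times in the 3 zones. TATAAA ran the other way, with 1.09, 3.21 and 5.40 per kb, and GC content was 43.8% in the first 50 bp, 31.7% at 51 to 100 bp and 26.2% farther in. The 557 pairs of the same spacing without a divergent summit, some of which held another IDR summit, had the same order of zones for TATCGATA (1.10, 0.431 and 0.0675 per kb). Their density next to the starts was lower than in pairs with a divergent summit. CGATA likewise occurred 8.73 times per kb in their first 50 bp. Their zones had GC contents of 41.4%, 33.7% and 30.1%. Divergent summits with TATCGATA within 100 bp had a median signal of 673 (111 summits), against 752 for those without it. Those with GGTCACACT had 477 (44 summits) against 759, and those with CACGTG had 713 (46 summits) against 751. TATAAA ran the other way, with 892 (497 summits) against 632, as did the Su(H) site, with 890 (27 summits) against 751. GC content moved with these medians: it was 35.3% at summits with TATCGATA and 31.3% at those without, and 28.9% with TATAAA and 34.8% without, and its part was not tested.

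The strongest divergent promoter summit was at Art3/mRpS10, whose gap is printed above. At Art3/mRpS10 on 3R (dm6, summit 15229538, between starts 257 bp apart) the signal was 3659 in replicate 1, 1942 in replicate 2 and 3178 in replicate 3, and 8743 in the IDR list, rank 7 of 8549. At eIF4EHP/CG18428 on 3R (summit 24109197), where eIF4EHP is a cap-binding repressor of translation, the signals were 3293, 1678 and 2904. At Chro/Ssl1 on 3L (summit 22878896), 88 bp past a start, they were 3249, 1750 and 2756. All 20 of the strongest had a summit in each replicate list. Among the other 17 stood mRpS23/CenG1A (mitochondrial ribosome, and a GTPase-activating protein), mRpL23/CG9004, p38a/CG6178 (a stress-activated MAP kinase), Hrd3/PTPMT1 (endoplasmic reticulum protein degradation, and a mitochondrial phosphatase) and Acbp1/Piezo (acyl-CoA binding, and a mechanosensitive channel). CG5611/Mtl (a Rac-like GTPase), lin-52/CG15771 (a subunit of the Myb-MuvB complex), Pax/Alp12 (paxillin of integrin adhesions) and Mkk4/SLIRP2 (a JNK pathway kinase, and an RNA-binding protein) were also there. So were Cp190/CG4338, with an insulator protein, CG13390/CG17294, CG11309/CG7632, Pdrg1/Pal1, CG1602/PIG-G, Tcs5/CHMP2B, Lon/PIG-F and Fbw5/CG9147.

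The weakest divergent summits had signals close to the floor of the IDR list, which was 286.5. They were at UGP/Svip, pbl/CG8281, Nmdmc/Mst85C, CG4318/CG4332 and pr/neb, with 286.7 to 288.3, where pbl is needed for cytokinesis. All 5 had a summit in each replicate list, and at UGP/Svip the signal was 183 in replicate 1, 46.2 in replicate 2 and 68.3 in replicate 3. Ranks differed most between replicates at CG32486/PAN3 (signals 54.8, 94.0 and 23.5), at the second summit of noi/Vha26 (281, 86.7 and 27.6) and at Atg6/Pisd (231, 26.2 and 111). These 3 were all among the weaker summits, with IDR signals of 296, 400 and 337.

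Ribosomal protein genes had the highest shares among the 20 gene lists. Of 93 genes for cytoplasmic ribosomal proteins, 38 had a divergent promoter summit (40.9%, against 14.5% of all protein-coding genes), and 56 stood in an opposite-strand pair at all. Any IDR summit near a start was held by 74 of the 93 (79.6%, against 28.1% of all genes), so 36 of them had a summit but no divergent one. Of 73 genes for mitochondrial ribosomal proteins, 36 had a divergent summit (49.3%), 38 had any IDR summit and 58 stood in a pair. Part of such a share is the share of genes in pairs, so the fairer measure is among genes in a pair, of which 39.3% had a divergent summit over the genome: it was 67.9% for cytoplasmic and 62.1% for mitochondrial ribosomal proteins. The strongest member summit of each gene had a median signal of 1164 for cytoplasmic and 795 for mitochondrial ribosomal proteins, against 751 over all 1104 summits. The last value also counts weaker summits of the same gene, so the measures are not alike. In the cytoplasmic group, RpL34b/CG8132 had a signal of 1207 in replicate 1, 604 in replicate 2 and 914 in replicate 3. RpL34a/Trmt61 had 811, 587 and 823 in the same replicates, so RpL34b was the stronger in each replicate. Aminoacyl tRNA synthetases, which load tRNAs, had 11 of 33 genes at such a summit, led by IleRS, GluProRS and SerRS (signals 2576, 2014 and 1974), and translation initiation factors had 6 of 44, led by eIF4EHP, eIF1 and eIF3h. Among genes in a pair the shares were 47.8% for the synthetases and 28.6% for the initiation factors, the second below the genome's 39.3%.

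Lists of energy metabolism and protein turnover differed from each other. Respiratory chain and ATP synthase genes had 18 of 94 at a divergent summit (19.1%), led by Cyt-c-d, a germline cytochrome c, ND-ASHI and ND-MWFE, both of complex I, with signals of 2952, 1801 and 1796. Among those in a pair the share was 38.3%, near the 39.3% of the genome. Proteasome genes had 14 of 48 (29.2%, and 53.8% of those in a pair), led by Prosbeta2, a catalytic core subunit, and Rpn3 and Rpn5, lid subunits, with signals of 1437, 1310 and 987. mRpL39 and Prosbeta2 shared 1 summit. Vacuolar proton pump genes had 7 of 33 (21.2%, and 50% of those in a pair), led by Vha100-2, Vha16-5 and Vha26, with signals of 2653, 847 and 720. The Vha26 summit with 720 had no match in replicate 1. By the strongest divergent summit of each gene, the median signal was 573 for proteasome genes and 523 for the proton pump. Both were below the 751 of all divergent summits, which also counts weaker summits of a gene.

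The 6 lists of transcription, chromatin, replication, nuclear pore and cell cycle genes had 18.9% to 30.0% of their members at a divergent summit, against 14.5% of all genes. Among genes in a pair the background was 39.3%. Mediator and TFIID bridge regulators and RNA polymerase II, and their list also holds the general factors TfIIA-L, TfIIB and TfIIFalpha. This list had 15 of 50 genes at a divergent summit (30.0%, and 41.7% of those in a pair). Taf5, Taf2 and MED27 led it with signals of 3035, 2628 and 2125. RNA polymerase subunits had 9 of 31 (45.0% of those in a pair), led by Polr3E, Polr2B and Polr2H with signals of 3472, 2563 and 1328. Chromatin and insulator proteins had 10 of 38 (26.3%, and 38.5% of those in a pair), but with a median signal of 2421 over those 10 genes: Chro, Cp190 and brm, the ATPase of the Brahma remodeller, led with 7734, 4849 and 4068. M1BP and Dref, whose motifs were searched above, were themselves at divergent summits with signals of 3196 and 1646. DNA replication genes had 7 of 37 (31.8% of those in a pair), led by PolD2, the DNA polymerase delta subunit, whose summit had no match in replicate 2, and by RPA1 and Mcm2. RPA1/Mcm2, a single-strand binding protein paired with a replicative helicase subunit, was the 1 pair with a divergent summit of the 10 pairs whose genes were both in the same list, and its signals were 577, 369 and 672 in replicates 1, 2 and 3. The other 9, among them Taf10b/Taf10 and Ibf2/Ibf1, had none, while 38.9% of all opposite-strand pairs had one. Of the 10 pairs, 7 were of receptor or cuticle genes. Nuclear pore genes had 6 of 25 (27.3% of the 22 in a pair), led by Nup37, Nup133 and Nup93-2, and cell cycle genes had 5 of 21 (50% of those in a pair), led by Cdk1, aurA and aurB with signals of 1407, 1086 and 881.

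Genes of the Notch pathway, which acts upstream of the E(spl) complex, had 7 of 25 with a divergent promoter summit (28.0%, against 14.5% of all genes), and 14 with any IDR summit near a start (56.0%, against 28.1%). Among the 16 in a pair the share was 43.8%, near the 39.3% of the genome, and the strongest divergent summit of each gene had a median signal of 808. The strongest was at Reps/l(2)gd1, where l(2)gd1 encodes an endosomal regulator that limits Notch activation, with 1729 in replicate 1, 888 in replicate 2 and 1624 in replicate 3. Snx21/aph-1, with a subunit of the γ-secretase that cleaves Notch, had a summit with an IDR signal of 2359 and another with 1257. rumi/Usp12-46, with a glycosyltransferase that modifies Notch, had 498, 280 and 493 in the 3 replicates. RN-tre/mam, with the coactivator Mastermind, had a summit with an IDR signal of 808 and another with 537. CysRS-m/O-fut1, with the O-fucosyltransferase of Notch, had 711. neur/hyx, with a ubiquitin ligase that acts on the ligand Delta, had 545, and wdb/pins, with a phosphatase regulatory subunit, had 386 and no match in replicate 2. The group thus ran from the 23rd strongest divergent summit to the 934th of 1104.

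E(spl) genes and the neural and patterning factors were rarely at divergent promoters, and few of them stood in opposite-strand pairs. Over all protein-coding genes 28.1% had an IDR summit near a start, 14.5% a divergent one, and 36.9% stood in a pair. Of 15 genes of the E(spl) complex and Bearded family, 11 had an IDR summit near a start but 1 stood in such a pair. That gene, E(spl)mdelta-HLH, a repressor of the same family as the tagged protein, faces CG43116 over a gap of 625 bp. Its divergent summit had signals of 1025, 721 and 1099 in replicates 1, 2 and 3. Of 23 proneural and neuroblast factors, 11 had an IDR summit and 1 a divergent one, brat, which encodes a translational repressor that halts neuroblast self-renewal and is paired with Polr1D (signals 360, 202 and 331). Of 33 patterning factors, 13 had an IDR summit and 0 a divergent one, with 2 in a pair. Of 5 Hairy and Hey family genes, 2 had an IDR summit and 0 stood in a pair.

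The families of chemosensory receptors and cuticle proteins had few summits of either kind. Over all protein-coding genes 28.1% had an IDR summit near a start and 14.5% a divergent one. Of 179 olfactory, gustatory and ionotropic receptor genes, 27 stood in an opposite-strand pair and 0 had an IDR summit near a start. Of 122 cuticle protein genes, 6 had an IDR summit near a start (4.92%) and 14 stood in a pair. Of these 14, 1 (7.14%), Cpr23B, had a divergent summit, with a signal of 310 in replicate 1, 126 in replicate 2 and no match in replicate 3. Over the genome 39.3% of genes in a pair had a divergent summit.

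**Figure D4:**
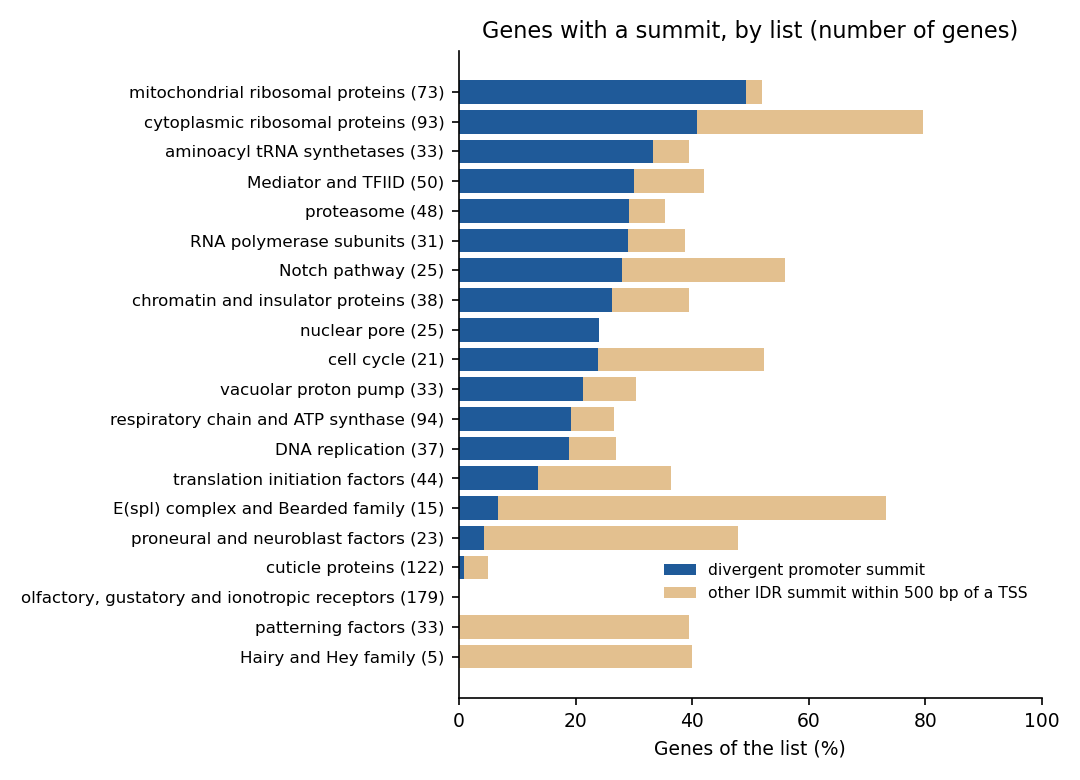
Bars give the percentage of each list's genes (number of genes in brackets) with a divergent promoter summit and, stacked beside it, with another IDR summit within 500 bp of a start. Mitochondrial ribosomal proteins have the longest divergent part (49.3%), while the E(spl) complex and Bearded family have 11 of 15 genes with a summit and 1 of them divergent.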

How the data were processed

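Peaks were called on dm6 for each of 3 biological replicates and for their pooled alignments, each against a control alignment, per the provenance records in the authors' deposited files; the control is not analysed here, and the aligner and peak caller are not stated in these sources. Per the labels, fragments were 200 to 800 bp. The authors deposited a signal per peak, relative to the control and comparable only within a list, and a −log10 q-value, which was not used. There were 0 other columns of sample values.

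Summits were placed with Ensembl 115 transcripts, matched to replicate summits within 100 bp, and compared with the one-strand class by the median log2 signal in each replicate, with an exact sign-flip permutation test over replicates. Scripts ran in Python 3.11.15 with numpy 2.4.6, pandas 2.3.3 and scipy 1.17.1, and were tested on simulated data. Counts and motif shares carry exact (Clopper-Pearson) 95% binomial intervals, which cover counting alone. Of 211 symbols in the lists given by symbol, 197 matched the annotation.

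The regions, gene lists and motifs were chosen with earlier results of these data known. Pairs were named by a rule: the 20 strongest and 5 weakest summits, the 2 strongest per spacing class, same-list pairs, the 3 strongest genes per list, all Notch, E(spl) and Hairy genes, the 3 largest rank spreads and the pair with most summits. An item that the rule named is not reported here. M1BP and Dref, and the gaps printed for their sequence, were named outside it, after their values had been seen. Alternatives changed the list, distance, annotation, replicates, matching and motif window.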

Additional observations from a re-analysis of the deposited data

Results flagged for a closer look

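The authors' pooled list, which the comparisons above do not use, held 1701 divergent promoter summits, of which 597 were outside the IDR list. They touched 293 further gene pairs. Their median signal was 168 and their highest 285, below the lowest signal in the IDR list (286.5). They have no control sample of another genotype to be set against here.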

How the results depend on the processing

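The number of divergent promoter summits was 714 among the 4274 strongest peaks, 1701 in the pooled list and 708 with a distance of 250 bp. Leaving out a replicate could be done only as a count of summits matched in both others, at 986 to 1006, since the IDR list rests on all 3. With 1000 bp, outermost starts, 1 summit per interval or a match in every replicate the number was 952 to 1405. The share of opposite-strand pairs with such a summit was 27.3% among the strongest peaks, 49.6% in the pooled list and 34.2% with 1000 bp. The share of summits between the starts was 74.4% with outermost starts, 84.0% among the strongest peaks and 75.4% with 1000 bp. Genes in a pair had a summit 2.47 times as often as other genes, and 1.71 to 3.06 times over the alternatives. The cause of these shifts was not tested, beyond the larger or smaller sets each setting makes. The mean log2 signal difference kept its direction in all 12 alternatives run, at 0.15 to 0.72, and was 0.28 to 0.56 without 1 replicate. With windows of 50 bp on each side 4 of 14 motifs were more frequent at divergent than at one-strand summits, and CACGTG turned round (1.54% and 2.35%), as did CAGCTG (4.71% and 4.99%); with 200 bp, 7 of 14 were. Among the strongest peaks CACGTG was in 3.92% of divergent and 4.05% of one-strand windows. TATCGATA and GAGAGAG kept their direction in all 3. No paired analysis was possible because there is 1 group, with no second group to share replicate numbers; the classes of summits were compared within each replicate. Read depth is unknown, and no second genotype, antibody or control library was analysed here.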
